A study of Homo sapiens with 3 samples.

Results

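The genes described here encode the integrin subunits of keratinocytes, 5 alpha chains (ITGA2, ITGA3, ITGA5, ITGA6 and ITGAV) and 5 beta chains (ITGB1, ITGB4, ITGB5, ITGB6 and ITGB8). They were found by the names of their transcripts on the main chromosomes, which gave 10 of 60471 genes and 112 of 226669 transcripts. All 10 had a mean summed level of at least 1 FPKM (fragments per kilobase of transcript, scaled to the size of the library), as did 13913 genes in all. The samples were HaCaT cells, an immortalized human keratinocyte line, whose genotype is labelled WT for the control. The cells were transfected with a lipid reagent at 10 nM of a control siRNA, of SRSF5 siRNA No.1 or of SRSF5 siRNA No.2, and the last pair is labelled SRSF5 knockdown. SRSF5 is an RNA-binding protein of the SR family that takes part in splice site choice. Each transfection gave 1 RNA library, so there were 3 libraries and no siRNA was repeated. Transfected cells of a line were sequenced in bulk, so fewer cells making an RNA and less of it per cell cannot be told apart.

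An integrin is a pair of 1 alpha and 1 beta chain that spans the membrane and ties the matrix outside to the cytoskeleton inside. In the epidermis ITGA6 pairs with ITGB4 in hemidesmosomes, which bind laminin and hold keratin filaments. ITGB1 pairs with ITGA2 as a collagen receptor, with ITGA3 as a laminin receptor and with ITGA5 as the fibronectin receptor. ITGAV pairs with ITGB5, a vitronectin receptor, and with ITGB6 and ITGB8, which bind latent TGF-beta and take part in its activation.

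The libraries held 18319683, 17704648 and 15861267 equivalents of a 100-base read for the control, siRNA 1 and siRNA 2, counted over the largest transcript of each gene. Summed FPKM of SRSF5 was 94.1, 44.3 and 18.7, or 47.1% and 19.8% of the control. All 8 keratinocyte markers were above the filter, with summed levels of 4682, 5275 and 8755 FPKM over the list. Of 5 melanocyte, 8 fibroblast and 6 leukocyte markers, 4, 7 and 5 were below 1 FPKM in each library, and of 5 endothelial markers 4, 4 and 3 were. MLANA and TYR, which define melanocytes, were listed at 0 in all 3 libraries. The melanocyte list summed to 4.51, 7.70 and 5.84 FPKM, the fibroblast list to 2.92, 5.63 and 6.45, the endothelial list to 3.71, 1.91 and 2.47, and the leukocyte list to 29.6, 20.7 and 19.4, most of it CD68. With siRNA 2 the higher sum rests mainly on KRT5 (2259, 2558 and 3523) and KRT14 (714, 1040 and 3164). Also higher there than in the control were TP63 (28.1, 29.4 and 64.2), DSG3 (55.2, 41.3 and 150), DSP (349, 345 and 593) and COL17A1 (281, 335 and 430). Only SFN (402, 447 and 361) and KRT6A (594, 480 and 470) were lower there than in the control. Mitochondrial transcripts took 14.0%, 15.1% and 10.2% of the base overlaps on the main chromosomes, least with siRNA 2. The part of the keratinocyte marker levels and of the mitochondrial share in the integrin values was not tested.

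A pair of exons of ITGA6 and 1 exon of ITGB4 are shown because their coverage bears on which form of each chain the cells made, and SRSF5 acts in splicing. The sequences were read from GENCODE release 29 transcripts on GRCh38, whose exon coordinates equal those of the deposited tables at these exons and their neighbours. Capitals mark the exon and lower case the 15 bases of the transcript on each side. The ITGA6 exons lie on the plus strand at chr2:172470974-172471105 (132 bases, taken from ITGA6-201) and chr2:172472774-172472890 (117 bases, taken from ITGA6-203). Both join the same neighbouring exons. The ITGB4 exon lies on the plus strand at chr17:75753765-75753974 and is listed in ITGB4-201 alone.
ITGA6 132-base exon: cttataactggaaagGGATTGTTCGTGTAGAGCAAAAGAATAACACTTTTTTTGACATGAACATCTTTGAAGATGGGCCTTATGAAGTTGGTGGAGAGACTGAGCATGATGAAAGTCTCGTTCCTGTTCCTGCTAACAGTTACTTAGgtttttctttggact
ITGA6 117-base exon: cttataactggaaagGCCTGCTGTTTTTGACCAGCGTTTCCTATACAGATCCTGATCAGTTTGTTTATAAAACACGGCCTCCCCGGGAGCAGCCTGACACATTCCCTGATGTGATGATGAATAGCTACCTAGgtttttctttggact
ITGB4 210-base exon: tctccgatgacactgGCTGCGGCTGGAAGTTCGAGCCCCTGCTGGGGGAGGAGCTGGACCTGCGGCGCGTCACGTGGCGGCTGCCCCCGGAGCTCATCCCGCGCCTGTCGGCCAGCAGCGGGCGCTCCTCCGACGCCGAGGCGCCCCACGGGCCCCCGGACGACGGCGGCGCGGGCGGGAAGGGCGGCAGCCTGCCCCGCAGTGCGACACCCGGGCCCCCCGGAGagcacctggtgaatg

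Levels between genes are compared on the longest protein-coding transcript, since FPKM is per length and a sum grows with the number of listed transcripts. In the control library ITGB1-202 was the highest of these at 38.8 FPKM, followed by ITGA6-202 at 28.2 and ITGA2-201 at 27.1. ITGA3-202 at 16.3 and ITGB4-201 at 15.7 came next, and their difference was 1.62 counting standard errors, so their order is not set by these reads. The difference between ITGA6-202 and ITGA2-201 was 2.44 counting standard errors. Most bases of ITGA2-201 lie in its last 3945 bases, so its place in the order depends on that end. The other listed ITGA2 transcripts, which lack it, were at 9.46 to 9.94 FPKM in the control. ITGAV-201 was at 9.49, ITGB5-201 at 6.27, ITGA5-201 at 1.89, ITGB8-201 at 1.23 and ITGB6-201 at 0.731. These transcripts held from 151 read equivalents (ITGB6-201) to 9483 (ITGA2-201) in the control, and counting errors leave out any spread between cultures. With siRNA 1 the highest was again ITGB1-202. With siRNA 2 the highest was ITGA2-201, and ITGB5-201 stood above ITGAV-201. ITGB8-201 stood above ITGA5-201 with both siRNAs, at 5.33 against 2.76 with siRNA 1 and 2.74 against 1.87 with siRNA 2.

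**Figure D1:**
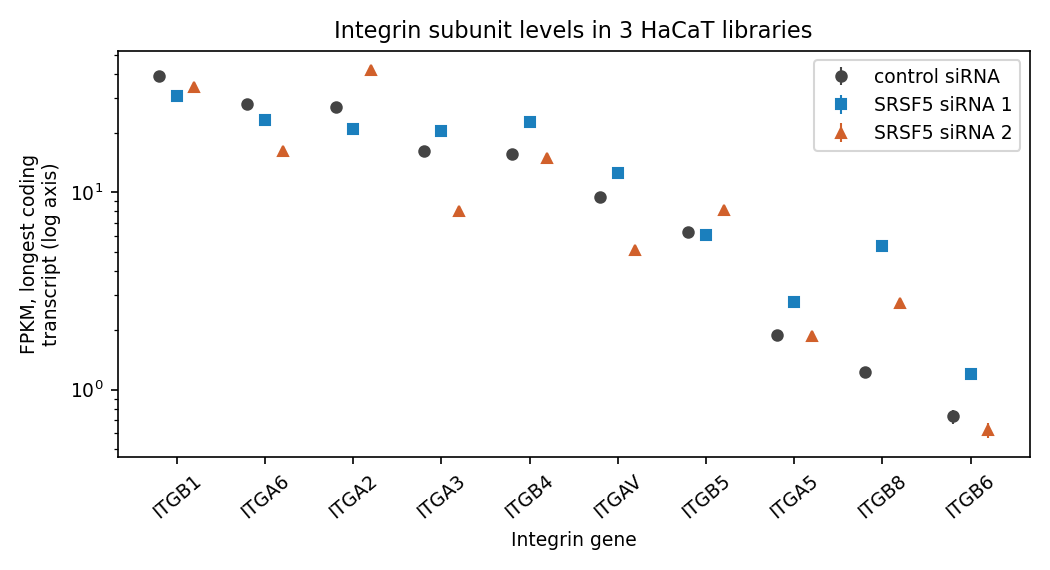
FPKM of the longest protein-coding transcript of each integrin gene (log axis) in the control, siRNA 1 and siRNA 2 libraries, with counting standard errors. ITGB8 is at 1.23, 5.33 and 2.74 FPKM and ITGA2 at 27.1, 20.9 and 41.8, while ITGB1 stays between 30.8 and 38.8.

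Each siRNA was then set against the control, on summed FPKM, and below values come in the order control, siRNA 1, siRNA 2. Log2 ratios were taken after adding 1 FPKM to each sum, which understates differences of low genes. Past 1.5-fold with both siRNAs, on the same side of the control, was 1 of 10 members, ITGB8, against 4.66% of all 13913 genes. It was higher (3.19% of all genes), and 0 members were lower (1.47%). With siRNA 1 alone 2 members were at least 1.5-fold away (11.7% of all genes), ITGB8 and ITGB6, both higher (6.19%), and 0 were lower (5.48%). ITGB6 was past the fold by little (1.51-fold). With 1 FPKM added, its log2 ratio was 0.46 on the highest transcript, 0.33 on the mean over transcripts and 0.35 on the longest coding transcript. These are all under 1.5-fold, but adding 1 FPKM weighs much on such low levels. Without it ITGB6-206, the highest transcript, was 1.68-fold and ITGB6-201, the longest coding one, 1.64-fold. With siRNA 2 alone 5 members were (23.3% of all genes): ITGA2 and ITGB8 were higher (13.2%), and ITGA3, ITGA6 and ITGAV lower (10.1%). ITGA2, at 1.53-fold, was just under 1.5-fold with median scaling (log2 0.57) and with the mean over transcripts (0.58), and ITGB8 was under it with the mean over transcripts (0.55). These means also carry the added 1 FPKM, and without it a mean has the ratio of its sum. At 2-fold 0 members were past the fold with both siRNAs (1.01% of all genes), and ITGB8 was the 1 member past it with siRNA 1 (3.03%). With 0.1 FPKM added in place of 1, ITGB8 was past 2-fold with both siRNAs (log2 1.91 and 1.04). Both ratios of a gene share the 1 control library. The median log2 ratio of the members was 0.40 with siRNA 1 and -0.10 with siRNA 2, and over all genes it was -0.02 and 0.05. In limma, fitted to all genes with the control against both siRNAs, 0 members had a Benjamini-Hochberg adjusted p below 0.05 (0% of all genes), and 1 member, ITGB8, had an unadjusted p below 0.05 (3% of all genes). Robust moderation in limma called 3 genes and 0 members. The spread of a gene in limma starts from the difference between the siRNAs, with 1 residual degree of freedom. It is then pulled toward a trend over all genes, so the SE and p of a gene also rest on other genes. For ITGB1, ITGB8 and ITGAV the SD between the siRNAs was 0.105, 0.569 and 1.03, while the limma SE was 0.381, 0.475 and 0.520.

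**Figure D2:**
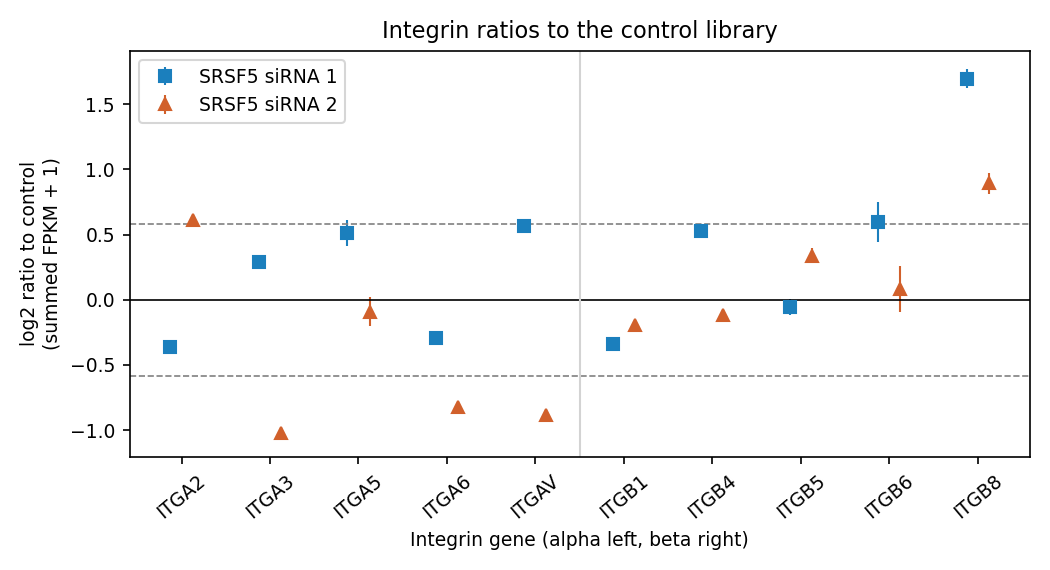
Log2 ratio to the control (1 FPKM added to each summed level) for each integrin gene, alpha chains left and beta chains right, with dashed lines at 1.5-fold. Bars are counting standard errors of the transcript with the most bases. ITGB8 is the member beyond 1.5-fold with both siRNAs (1.70 and 0.89), and ITGA3 and ITGAV lie above 0 with siRNA 1 and below the lower line with siRNA 2.

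ITGB8, the beta chain whose ITGAV pair binds latent TGF-beta, was above the control with both siRNAs (ENSG00000105855.10, chromosome 7, 20330702 to 20415754, plus strand). Its summed FPKM was 3.83, 14.6 and 7.96, and its highest transcript, ITGB8-205, was at 1.51, 5.92 and 3.17. Both siRNA libraries stood above the control, siRNA 1 further. The log2 ratios were 1.70 and 0.89 with counting errors of 0.07 and 0.08, resting on 493, 2022 and 1013 read equivalents of ITGB8-201. In limma the mean was 1.29 (SE 0.47, unadjusted p = 0.0185, adjusted p = 1.00), higher in 2 of 2 siRNA libraries. All 4 ITGB8 transcripts with at least 10 read equivalents in each library were higher, by log2 1.42 to 2.11 with siRNA 1 and 0.92 to 1.15 with siRNA 2. Isoforms share reads here, so these are not separate evidence.

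The start of ITGB8 is shown because it was the member past 1.5-fold with both siRNAs. RefSeq places it where ITGB8-201 starts in the deposited tables (20330900), while ITGB8-205 starts upstream at 20330702, so most of the window lies within the gene as the tables list it. The window of 250 bases before and 50 after the RefSeq start (GRCh38.p14, chr7:20330650-20330949, plus strand) has its matches to the SP1 motif GGGCGG, on either strand, in capitals.
ITGB8 promoter window: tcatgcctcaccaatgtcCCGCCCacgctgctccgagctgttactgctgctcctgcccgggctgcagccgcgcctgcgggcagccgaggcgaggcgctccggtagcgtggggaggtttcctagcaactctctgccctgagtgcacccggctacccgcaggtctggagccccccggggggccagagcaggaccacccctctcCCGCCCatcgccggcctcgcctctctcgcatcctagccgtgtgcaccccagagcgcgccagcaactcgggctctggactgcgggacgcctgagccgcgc
It held 2 SP1 matches and 0 matches to the AP-1 motif TGANTCA, the TEAD motif GGAATG or the CRE motif TGACGTCA, each searched on both strands. Of 35116 RefSeq windows of this length, 45.0% held the SP1 motif, 7.71% AP-1, 14.0% TEAD and 1.85% CRE. RefSeq windows were found for 8 of the 10 members, 13 windows in all, of which 9 held SP1, 1 AP-1, 2 TEAD and 0 CRE. A match describes letters, not a bound site.

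ITGAV, the alpha chain that pairs with ITGB5, ITGB6 and ITGB8 (ENSG00000138448.12, chromosome 2, 186590056 to 186680901, plus strand), had a summed FPKM of 62.8, 93.5 and 33.6. Its highest transcript, ITGAV-204, was at 11.7, 16.8 and 6.28. The control lay between the siRNA libraries, with log2 ratios of 0.57 and -0.88 and counting errors of 0.04 and 0.05. Between the siRNA libraries ITGAV was 2.73-fold higher with siRNA 1. ITGB5 (ENSG00000082781.12, chromosome 3, 124761948 to 124901418, minus strand) was at 103, 99.0 and 130.4 summed FPKM, with ratios of -0.06 and 0.34. ITGB5-203, its highest transcript on average, was at 11.4, 11.2 and 14.6 FPKM, and ITGB5-209 stood just above it in the control at 11.5.

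ITGB6, an epithelial beta chain that is low in resting skin (ENSG00000115221.12, chromosome 2, 160099667 to 160200313, minus strand), had a summed FPKM of 6.21, 9.90 and 6.65. Its highest transcript, ITGB6-206, was at 1.22, 2.05 and 1.27. The siRNA 1 library was the high one, and the log2 ratios were 0.60 and 0.09. The counting errors of 0.15 and 0.18 are those of ITGB6-201 alone, whose own log2 ratios were 0.71 and -0.24. With siRNA 2, ITGB6-208, a listed retained intron transcript of 1463 bases, stood apart from the other transcripts of the gene. It was at 0.377, 0.499 and 1.11 FPKM, a 2.95-fold higher value with siRNA 2 on 24.6, 30.9 and 67.1 read equivalents (log2 1.56, counting error 0.34). The full-length ITGB6-201 was at 0.731, 1.20 and 0.621. ITGB6-208 was picked after its values were seen, and it is included in the sum, so the summed ratio of 0.09 with siRNA 2 holds both. A lncRNA transcript of the same strand, AC092153.1-201, shares 966 bases with ITGB6 exons and was at 0.533, 0.766 and 0.584 FPKM, so some reads belong to both.

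Among the partners of ITGB1, ITGA2 and ITGA3 lay on opposite sides of the control with siRNA 2. ITGA2, the collagen receptor chain (ENSG00000164171.11, chromosome 5, 52989340 to 53094779, plus strand), had a summed FPKM of 75.9, 58.7 and 117, and ITGA2-201, its highest transcript, was at 27.1, 20.9 and 41.8. The siRNA 2 library was the high one and siRNA 1 the low one, with log2 ratios of -0.37 and 0.62. ITGA3, a laminin receptor chain (ENSG00000005884.18, chromosome 17, 50055968 to 50090481, plus strand), was at 208, 253 and 102 summed FPKM. Its highest transcript, ITGA3-214, was at 28.0, 33.3 and 13.3. Here siRNA 2 was the low library, at log2 -1.02 with a counting error of 0.04, against 0.29 with siRNA 1. At 1 FPKM added, ITGA3 was the 1 member at least 2-fold from the control with siRNA 2 (7.32% of all genes). With 0.1 FPKM added ITGB8 was past 2-fold too. With 1 FPKM added, ITGA3 was not past it on the mean over transcripts (log2 -0.93) or on the longest coding transcript (also -0.93). With nothing added that coding transcript, ITGA3-202, was at log2 -1.01.

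ITGA2 coverage was uneven along the transcript. The last 3945 of the 7843 bases of ITGA2-201 held between 66.5% and 83.7% of its bases in the control, 66.3% to 83.5% with siRNA 1 and 66.6% to 83.7% with siRNA 2. These limits follow from the base counts of the listed transcripts. A 142-base internal exon, chr5:53073118-53073259, had 1.8 to 4.0 read equivalents in the control, 2.6 to 3.4 with siRNA 1 and 3.6 to 6.9 with siRNA 2. That is 1.05% to 2.33%, 2.07% to 2.71% and 1.47% to 2.82% of the mean coverage of ITGA2-201. What set the low coverage of this exon was not tested.

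ITGA5, the fibronectin receptor chain (ENSG00000161638.11, chromosome 12, 54395261 to 54419266, minus strand), was at 18.9, 27.4 and 17.7 summed FPKM. The control and siRNA 2 lay close together and siRNA 1 was the high library, with log2 ratios of 0.51 and -0.09 and counting errors of 0.10 and 0.11. Its highest transcript, ITGA5-203, was at 2.84, 3.86 and 3.0 FPKM. ITGB1, the shared beta chain (ENSG00000150093.19, chromosome 10, 32900318 to 33005792, minus strand), was at 566, 447 and 496, and its ratios of -0.34 and -0.19 were within 1.5-fold of the control. The transcript ITGB1-217 was highest, at 103, 80.5 and 89.6 FPKM. ITGB1 also differed least between the siRNA libraries among the members (log2 0.15).

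The chains of the hemidesmosome pair had different ratios to the control. ITGA6 (ENSG00000091409.15, chromosome 2, 172427354 to 172506459, plus strand) was at 329, 268 and 186 summed FPKM, and ITGA6-204, its highest transcript, at 44.6, 37.3 and 26.3. Both siRNA libraries were below the control, with log2 ratios of -0.30 and -0.82 and counting errors of 0.03 each, and in limma the mean was -0.56 (SE 0.39, adjusted p = 1.00). ITGB4 (ENSG00000132470.14, chromosome 17, 75721328 to 75757818, plus strand) was at 252, 362 and 232, with ratios of 0.52 and -0.11, so siRNA 1 was its high library. Its highest transcript, ITGB4-213, was at 31.6, 45.4 and 28.2.

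Ratios of subunits within a library do not depend on how libraries are scaled. On the longest coding transcripts, ITGB4 over ITGA6 was 0.557, 0.974 and 0.919, so the siRNA libraries were alike and above the control. ITGB8 over ITGAV was 0.130, 0.427 and 0.535, again higher in both. ITGB5 over ITGAV was 0.660, 0.486 and 1.59, and ITGB6 over ITGAV was 0.0770, 0.0961 and 0.122. Among the alpha partners of ITGB1, ITGA2 over ITGB1 was 0.700, 0.679 and 1.23, ITGA3 over ITGB1 was 0.420, 0.665 and 0.237, and ITGAV over ITGB1 was 0.245, 0.406 and 0.150. ITGA2 was 1.66, 1.02 and 5.18 times ITGA3, highest with siRNA 2. On summed FPKM the same ratio was 0.366, 0.232 and 1.15, again highest with siRNA 2, but below 1 in the control and with siRNA 1. Summed, ITGB4 over ITGA6 was 0.764, 1.35 and 1.25, and ITGB5 over ITGAV was 1.64, 1.06 and 3.88. Which chain of these pairs is the higher one thus depends on the measure. These ratios have no replicate and no test.

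**Figure D3:**
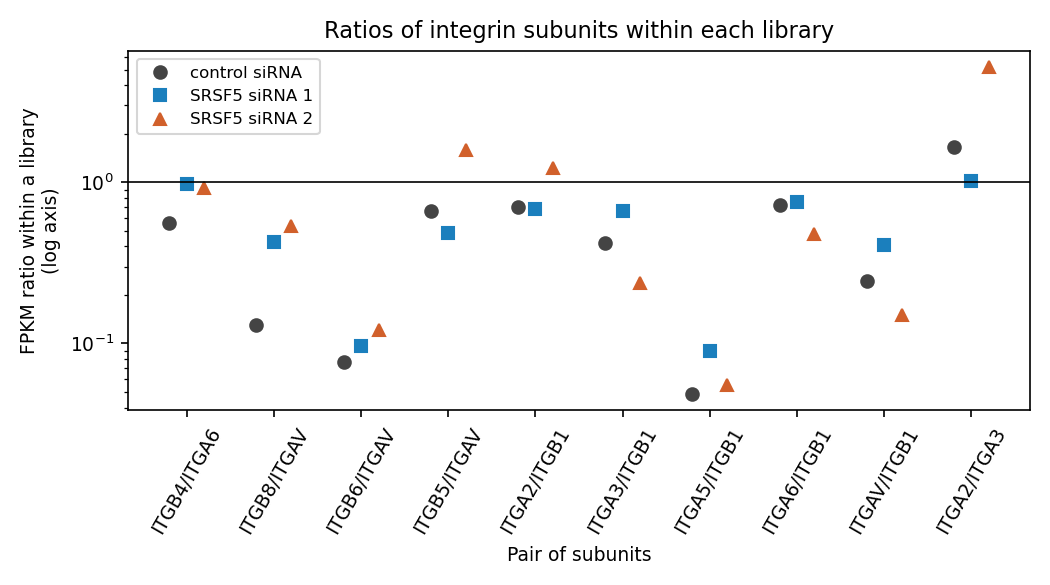
Ratio of the FPKM of the longest coding transcripts of a pair of subunits within each library (log axis), for the control, siRNA 1 and siRNA 2. ITGB4 over ITGA6 and ITGB8 over ITGAV are higher in both siRNA libraries than in the control, and ITGA2 over ITGA3 is 5.18 with siRNA 2 against 1.66 in the control.

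Between the siRNA libraries 6 of 10 members were at least 1.5-fold apart (24.3% of all genes). With siRNA 2, ITGA2 was 1.97-fold higher (13.7% of all genes were past 1.5-fold on this side and 10.5% on the other), while with siRNA 1 ITGAV was 2.73-fold, ITGA3 2.48-fold, ITGB8 1.75-fold, ITGB4 1.56-fold and ITGA5 1.52-fold higher. The median log2 ratio of siRNA 2 over siRNA 1 was -0.56 for the members and 0.07 for all genes. At least 2-fold apart were ITGA3 and ITGAV (6.85% of all genes). With 1 FPKM added, ITGA5 was under 1.5-fold on the highest, mean and longest coding transcript (log2 -0.28, -0.39 and -0.39), and ITGB4 on the longest coding one (-0.58). Each siRNA had 1 library, so none of these differences has a replicate check.

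Transcripts of a gene mostly kept to its own ratio, as they share reads. Of 112 listed transcripts 108 held at least 10 read equivalents in each library. With siRNA 2 the range of log2 ratios within a gene was from 0.0033 in ITGA2 to 0.43 in ITGA5, apart from ITGB6, where ITGB6-208 widened it to 1.79. With siRNA 1 it was from 0.012 in ITGA2 to 0.69 in ITGB8.

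**Figure D4:**
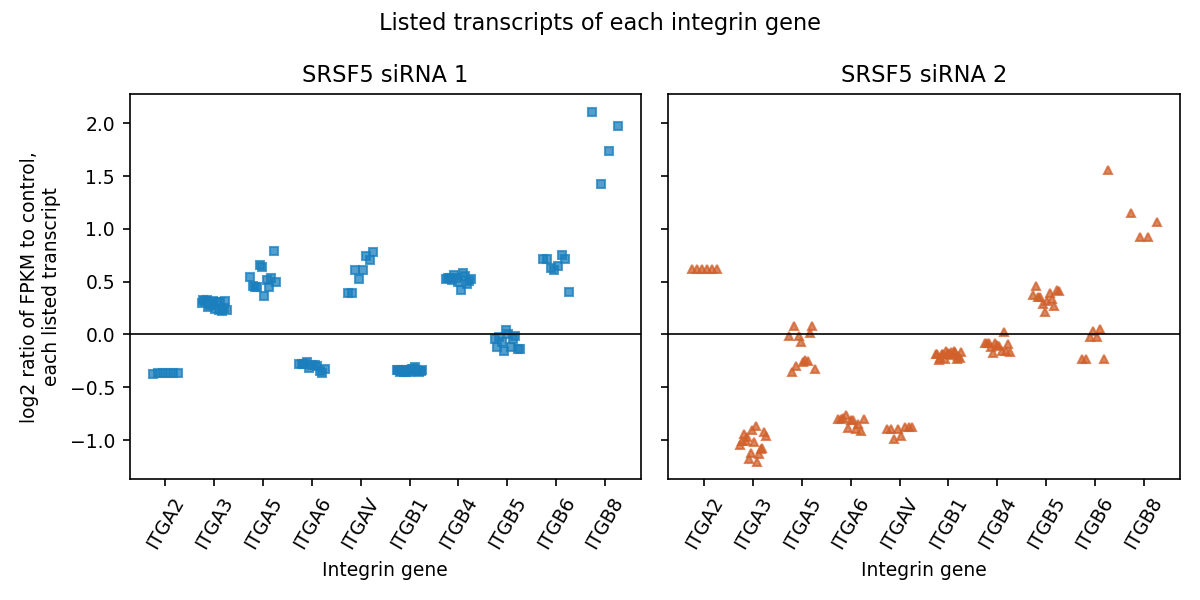
Log2 ratio of FPKM to the control for the 108 listed integrin transcripts with at least 10 read equivalents in each library, by gene, for siRNA 1 (left) and siRNA 2 (right). With siRNA 2 the single ITGB6 point at 1.56 is ITGB6-208, while the other ITGB6 transcripts lie near or below 0.

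The 132-base exon of ITGA6 could be solved exactly, since ITGA6-206 and ITGA6-207 differ by it alone. It held 4.4, 4.8 and 5.6 read equivalents, a mean coverage of 3.33, 3.64 and 4.24 per base against 126, 98.4 and 66.8 over ITGA6-202. This was 2.65%, 3.70% and 6.35% of the transcript mean, with exact 95% Poisson intervals of 0.782% to 6.52%, 1.17% to 8.77% and 2.23% to 14.2%. The intervals overlap and the read equivalents are few, but overlap is no test, and a difference between libraries was not tested. ITGA6-204, the highest transcript, starts at the 5′ end of the gene and includes this exon, so its FPKM rests on its other exons. Coverage of the 117-base exon could not be solved from the listed transcripts.

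In ITGB4, the 251 bases of ITGB4-201 that ITGB4-203 lacks, 210 of them the exon shown above, held 14, 15 and 21.5 read equivalents. Their coverage was 7.66% (95% interval 4.19% to 12.8%), 5.99% (3.35% to 9.88%) and 13.4% (8.37% to 20.4%) of the mean over ITGB4-203. The 210-base exon by itself held at most 9.15%, 7.16% and 16.1%. Coverage in the siRNA 2 library was the highest, and the intervals of all 3 libraries overlap, which is no test of a difference. Intervals are approximate here too and cover counting error only, as PCR copies are not independent molecules.

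**Figure D5:**
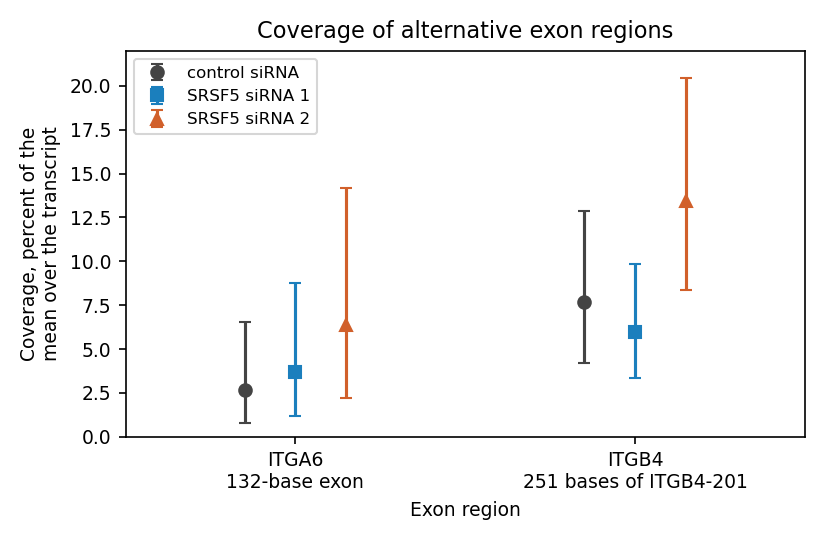
Coverage of the ITGA6 132-base exon and of the 251 bases of ITGB4-201 outside ITGB4-203, as percent of the mean coverage of ITGA6-202 and ITGB4-203, with approximate 95% Poisson intervals, in the control, siRNA 1 and siRNA 2 libraries. All points lie below 14%, and the intervals of the libraries overlap for both regions.

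Most of the remaining 16 integrin subunits were low, with 12, 13 and 13 of them under 1 FPKM in the control, siRNA 1 and siRNA 2 libraries. Of the 16, 3 were above the filter, ITGA1, ITGA4 and ITGAE, and 0 of these were past 1.5-fold with both siRNAs, a count too small to set against the 4.66% of all genes. ITGA4, a chain best known from leukocytes, was at 17.4, 38.2 and 21.0 summed FPKM, with log2 ratios of 1.09 and 0.26. ITGB2, the beta chain of leukocyte integrins, was picked after its values were seen and was at 0.00785, 0.211 and 0.302.

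Among integrin ligands 8 of 22 tested genes were past 1.5-fold higher with both siRNAs and 0 lower, against 3.19% and 1.47% of all genes, with median log2 ratios of 0.55 and 0.67. CCN1, a matricellular ligand of ITGAV and ITGA6 integrins, was at 10.3, 43.0 and 42.1 summed FPKM (1.96 and 1.93). CCN2, its relative, was at 0.556, 2.69 and 5.58 (1.25 and 2.08). It was under 1 FPKM in the control and passed the filter on the mean only through the siRNA libraries. The filter thus favours counting such a gene as higher, among the ligands as among all genes. TGFBI, a matrix protein that integrins bind, was at 612, 1347 and 1162 (1.14 and 0.92), and the collagen chain COL1A1 at 2.51, 5.02 and 4.89 (0.78 and 0.75). In limma 0 of the ligands passed over all genes (CCN1 adjusted p = 0.56). Earlier results of these data were known when the list was written, so its count is a description.

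Genes that act inside the cell were counted the same way, against 3.19% of all genes higher and 1.47% lower, and their difference from the ligands was not tested. Of 30 tested focal adhesion adaptors 1 was at least 1.5-fold higher with both siRNAs and 0 lower, with medians of 0.10 and 0.21. This was LPP, a LIM-domain protein, at 5.89, 10.7 and 12.8 summed FPKM. FLNA, the actin cross-linker filamin A, was at 328, 875 and 372 (1.41 and 0.18), so siRNA 1 was its high library. Of 14 signalling genes 1 was higher with both, PTK2, which encodes focal adhesion kinase, at 46.1, 90.3 and 75.8 (0.95 and 0.71), and RAP1B, a small GTPase of integrin activation, was at 85.0, 58.2 and 99.4. Of 15 trafficking genes 1 was higher with both, SWAP70 at 31.3, 49.95 and 62.9 (0.66 and 0.99), and CALR, which encodes calreticulin, was at 947, 1055 and 999. Of 10 hemidesmosome and tetraspanin partners 0 were past 1.5-fold with both siRNAs in either direction, with BSG (basigin) the most abundant at 992, 1052 and 962. In limma 0 genes of these lists had an adjusted p below 0.05.

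The 3 tested genes whose pair of log2 ratios was nearest to that of ITGB8 were SEMA6B, FSTL1 and AC068134.1, at distances of 0.05, 0.12 and 0.14 over the 3 libraries. SEMA6B was at 2.51, 9.99 and 5.58 summed FPKM, FSTL1 at 7.83, 28.4 and 16.8, and AC068134.1 at 0.384, 3.27 and 1.36. With 3 libraries and 13913 genes such nearness is a description.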

How the data were processed

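Total RNA of HaCaT cells gave 3 libraries, built with a SMARTER kit, per the labels' protocols. The authors deposited 1 FPKM value for each transcript, next to its exons and length, per the file headers. Builds in the submitters' processing notes are GRCh38.p12, GRCm38 and mm10, and no role is given to any. Identifiers are human Ensembl ones. Aligner and counter: not given in the sources used here.

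In each library 100% of the products of FPKM and length were whole multiples of a step (tolerance 0.05), which gave base overlaps per transcript, 4458622346, 4228110936 and 4126967673 in all. A base counts for each transcript it overlaps: in 0 of 52 nested pairs of integrin transcripts did the longer hold fewer bases. FPKM is therefore scaled to these overlaps, and 100 bases are called a read equivalent. The placing of multi-mapped reads is unknown. Of 247012 transcripts 20343 off the main chromosomes or copied on the Y were left out.

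The gene level was the sum of FPKM over transcripts named for a gene. Genes with a mean of at least 1 FPKM were kept, and a count of genes 1.5-fold from the control in both siRNA libraries was the rule. The test was limma 3.58.1 (R 4.3.3) with a trend on log2(FPKM + 1), 1 control against 2 siRNA libraries, Benjamini-Hochberg over all genes. The test assumes that the 1 control varies as the siRNA libraries do. The p-values rest on the difference between the 2 siRNA libraries, pulled by limma toward a trend over all genes. That difference mixes a difference between siRNAs with spread between transfections and technical spread. A gene whose siRNA libraries lie far apart can thus get a smaller spread than its own values give. Nothing says whether the transfections came from separate starting cultures. The limma script was tested on simulated data. Counting errors are Poisson, from the transcript of the gene with the most bases. Beside a ratio of sums with 1 FPKM added they are a guide to depth, not the error of that ratio. Exon regions were solved from differences of nested transcripts, or bounded by linear programming (scipy 1.17.1).

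Named were all 10 members; of each list up to 4 genes 1.5-fold from the control in both, and, with fewer than 2, the most abundant gene; and the 3 genes nearest to the leading member. Members and lists were chosen with earlier results of these data known. The alternatives were the highest transcript, the mean over transcripts, a pseudocount of 0.1 FPKM, no filter, median scaling, robust moderation, leaving out each siRNA library and, chosen after seeing the data, the longest coding transcript, a 2-fold rule and the bounds by linear programming.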

Additional observations from a re-analysis of the deposited data

How the results depend on the processing

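ITGB8 was the member counted as 1.5-fold from the control in both siRNA libraries, and the count was 0 when transcripts were averaged and 0 at 2-fold (1 at 2-fold with a pseudocount of 0.1, ITGB8). Before 1 FPKM is added, a mean over transcripts has the same ratios as its sum. The loss on averaging thus comes from adding 1 FPKM to low means (0.765, 2.93 and 1.59). The cause of the ITGB8 ratios was not tested. Leaving out 1 siRNA library, with no test left, gave 2 to 5 members. Between the siRNA libraries the count of 6 was 2 with a fold of 2. With median scaling ITGAV with siRNA 1 (log2 0.59) and ITGA6 between the siRNAs (-0.59) also passed 1.5-fold. Under the alternatives of level, pseudocount, filter, scaling and moderation limma called 0 members (smallest adjusted p = 0.96), and 70 of 70 mean ratios kept their direction. The settings without a filter and with robust moderation leave the ratios unchanged, so they could not turn a sign. The mean and pseudocount settings reuse the same sums, so the count of 70 says little about robustness. With 1 siRNA library left out, mean log2 ratios ranged from -0.37 to 0.62 for ITGA2, -1.02 to 0.29 for ITGA3, -0.091 to 0.51 for ITGA5, -0.88 to 0.57 for ITGAV, -0.11 to 0.52 for ITGB4 and -0.055 to 0.34 for ITGB5, and so turned sign. No paired analysis was possible because the control has 1 library and the siRNA numbers name different siRNAs. Against the highest transcript in place of the full-length one, the 251 bases of ITGB4 had 3.96%, 3.12% and 7.37% coverage. Depth limits ITGB6, at 151, 235 and 119 read equivalents, and the exon regions.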
